A study of Rattus norvegicus with 12 samples.

Results

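The keratins of the epidermis were examined in wounds of diabetic rats, as 3 basal keratins (*Krt5*, *Krt14*, and *Krt15*), 4 suprabasal keratins (*Krt1*, *Krt10*, *Krt2*, and *Krt77*), and 3 wound keratins (*Krt6a*, *Krt16*, and *Krt17*). They were taken by symbol from both deposited tables, and all 10 were found among the 25620 genes of the read count table and the 25524 genes of the FPKM table. The count table holds 50 genes named Krt with a number, so the other 40 were not members. The study dressed full-thickness wounds on the back of male SD rats that had been made diabetic with streptozotocin (STZ), and sequenced stranded, rRNA-depleted RNA of the tissue on day 3, 7, and 14. The 4 groups were the control (normal saline), *A. fulica* d-SMG (a dried snail mucus gel), s-GAG (the sulfated glycosaminoglycan of that gel), and Alg (a commercial alginate dressing). All groups, the control included, carried the STZ treatment and the wound, and no wound of a rat without diabetes was sequenced in the libraries used here. STZ destroys the insulin-producing cells of the pancreas, and the study names prolonged hyperglycemia and neuropathy among the features of human diabetic ulcers that the model may lack. The rats were obtained at 8 to 12 weeks of age. There was 1 library for each group and day, 12 altogether, so that a difference between 2 libraries of a day has no replicate check. The labels name the tissue only as skin, and the methods for the RNA name it as wound tissue without the size of the piece. In whole tissue, fewer keratinocytes and less keratin RNA in each keratinocyte cannot be told apart.

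Keratins form the intermediate filaments of epithelial cells, and each filament needs a type I keratin paired with a type II keratin. In the epidermis, dividing basal cells make *Krt5* (type II) with *Krt14* (type I), and cells that leave the basal layer switch to *Krt1* (type II) with *Krt10* (type I). After wounding, keratinocytes at the wound edge make *Krt6a* (type II) with *Krt16* and *Krt17* (type I), and hair follicles make *Krt5*, *Krt14*, *Krt15*, *Krt6a*, *Krt16*, and *Krt17* in intact skin as well. *Krt15* is known for the follicle bulge and the resting basal layer, *Krt2* is a type II keratin of the upper epidermal layers, and *Krt77* is a type II keratin related to *Krt1* that is known from sweat gland ducts of human skin. The type II members lie on chromosome 7 and the type I members on chromosome 10, as the files give them.

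RefSeq promoters (GRCr8) were found for 4 of the 10 keratins by symbol, 3 suprabasal and 1 basal. They are shown because *Krt10* and *Krt77* were both at least 4-fold lower in d-SMG and s-GAG on day 14 and *Krt2* was not, with *Krt5* as the basal member. Each line gives the 100 bases before the annotated start, 5′ to 3′ on the strand of the gene, which is the minus strand in each case. Capitals mark the letters TATAAA or TATATA, searched on both strands, where the 2 can overlap.
Krt5, chr7:134730570-134730669: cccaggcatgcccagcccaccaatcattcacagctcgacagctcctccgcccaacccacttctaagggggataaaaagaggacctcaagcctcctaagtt
Krt2, chr7:134826737-134826836: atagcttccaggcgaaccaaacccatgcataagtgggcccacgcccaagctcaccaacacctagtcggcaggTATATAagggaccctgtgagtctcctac
Krt77, chr7:134880777-134880876: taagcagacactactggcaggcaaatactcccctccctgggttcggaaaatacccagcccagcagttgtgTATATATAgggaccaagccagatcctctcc
Krt10, chr10:84839161-84839260: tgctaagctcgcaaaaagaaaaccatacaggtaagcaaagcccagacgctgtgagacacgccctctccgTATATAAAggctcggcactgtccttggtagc
TATATA began at position -28 before the start of *Krt2*, at -30 and -28 before *Krt77*, and at -31 before *Krt10*, where it overlapped a TATAAA at -29. Neither motif was found in the window of *Krt5*. Of the 33469 promoters of the table, 2.35% held TATATA, 5.78% TATAAA, and 7.38% either of them in the same 100 bases. The AP-1 letters TGANTCA, held by 2.47% of all promoters, were found in none of these 4 windows. The windows were compared by letters alone.

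The libraries held from 13748887 to 38302461 reads on genes (median 17022524.5), and the keratins took from 516 to 654965 of them. The d-SMG library of day 3 stood apart. All 10 keratins together took 0.00307% of its reads, compared with 0.42% to 3.09% in the other 11 libraries. The summed FPKM (fragments scaled by gene length and library total) of 9 epithelial genes, such as *Cdh1* and *Epcam*, was 7.76 in that library and from 193 to 1290 in the others. Its skeletal muscle genes summed to 79348 FPKM, the most of any library, and the others spanned 3394 to 69802. The labelled skin was therefore not represented by its epithelial markers in that library, and the ranges, order, correlations, and main fitted changes are given with and without it. Whether its tissue composition accounts for its low keratin levels was not tested.

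**Figure D1:**
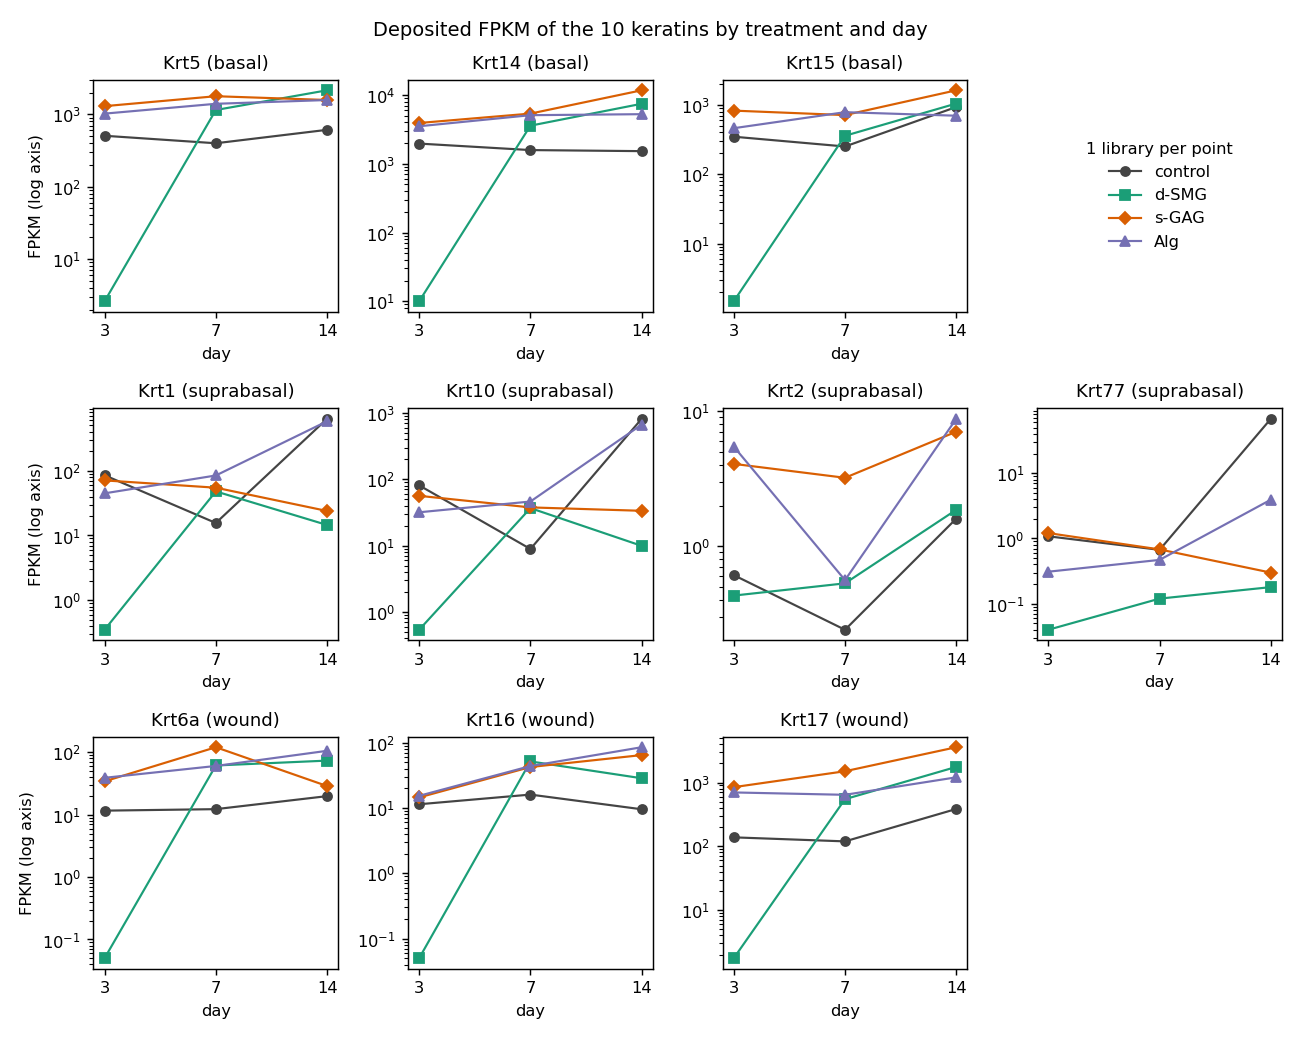
Deposited FPKM of each keratin (log axis) on day 3, 7, and 14 (evenly spaced), 1 point per library, with lines joining the libraries of a treatment. The d-SMG library of day 3 is the lowest for every keratin but *Krt2*, and *Krt1* and *Krt10* part on day 14 into a high pair (control, Alg) and a low pair (d-SMG, s-GAG).

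The basal keratins were the most abundant of the 10. *Krt14*, the type I keratin of the basal layer, was at 1969, 1584, and 1528 FPKM in the control on day 3, 7, and 14, respectively. It was at 3925, 5375, and 11739 FPKM in the s-GAG group, and at 3518, 5098, and 5272 FPKM in the Alg group. In the d-SMG group it was at 9.99, 3587, and 7473 FPKM. The control range of *Krt14* did not overlap that of s-GAG or Alg, and the d-SMG group lay below it on day 3 and above it later. *Krt5*, the type II partner of *Krt14*, was at 506, 398, and 611 FPKM in the control on the same days. Its FPKM was 1298, 1781, and 1579 in the s-GAG group and 1023, 1399, and 1577 in the Alg group. In the d-SMG group *Krt5* went from 2.60 to 1148 and 2151 FPKM, the highest value of the 12 libraries. The separation was therefore the one of *Krt14*, with the control below s-GAG and Alg on each day. *Krt15*, which marks the follicle bulge and resting basal cells, was at 348, 251, and 933 FPKM in the control. It was at 1.47, 359, and 1047 FPKM in the d-SMG group, at 827, 713, and 1625 in the s-GAG group, and at 461, 785, and 698 in the Alg group. Unlike *Krt14*, *Krt15* overlapped between the control and both s-GAG and Alg, and the control library of day 14 held 933 FPKM of it. The d-SMG range overlapped that of the control for both genes. The FPKM of *Krt15* per *Krt14* was 0.61 in that library and from 0.1 to 0.211 in the other 11.

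The suprabasal keratins spread most among the 11 libraries other than d-SMG on day 3. *Krt10*, the type I keratin of the spinous layer, was at 80.8, 8.89, and 813 FPKM in the control on day 3, 7, and 14. In the Alg group it was at 31.7, 46.1, and 664 FPKM. It was at 0.54, 36.7, and 9.91 FPKM in the d-SMG group and at 56.2, 37.6, and 33.4 FPKM in the s-GAG group. On day 14 *Krt10* was thus high in the control and Alg libraries and low in the d-SMG and s-GAG libraries. Leaving out the d-SMG library of day 3, the highest level of *Krt10* was 91.5 times the lowest, while that of *Krt14* was 7.68 times the lowest. *Krt1*, the type II partner of *Krt10*, was at 85.2, 15.6, and 635 FPKM in the control and at 44.75, 84.5, and 581 FPKM in the Alg group. In the d-SMG group *Krt1* was at 0.35, 48.0, and 14.5 FPKM, and in the s-GAG group at 71.0, 54.7, and 23.9 FPKM. *Krt1* followed *Krt10*, with the same pair of high libraries on day 14. *Krt77*, the relative of *Krt1*, was at 1.08, 0.67, and 68.2 FPKM in the control and at 0.31, 0.47, and 3.93 in the Alg group. It stayed at or below 1.21 FPKM in all 3 s-GAG libraries (1.21, 0.68, and 0.30) and all 3 d-SMG libraries (0.04, 0.12, and 0.18). *Krt77* was high in the control library of day 14 alone, which held 4482 reads of it, compared with 2 to 186 reads in the other 11. *Krt2*, a late suprabasal keratin, was at 0.61, 0.24, and 1.60 FPKM in the control and at 0.43, 0.53, and 1.86 in the d-SMG group. It was at 4.07, 3.21, and 7.05 FPKM in the s-GAG group and at 5.47, 0.56, and 8.79 in the Alg group. *Krt2* rested on few reads, from 8 to 306 per library, and was not low in the s-GAG group on day 14, where *Krt10* was.

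The wound keratins were led by *Krt17*, which made up 80.8% to 97.5% of their summed FPKM in each library. *Krt17* was at 138, 119, and 385 FPKM in the control on day 3, 7, and 14. It was at 845, 1502, and 3574 FPKM in the s-GAG group, at 699, 641, and 1206 in the Alg group, and at 1.76, 548, and 1757 in the d-SMG group. The control range of *Krt17* lay below that of s-GAG and Alg, and below the d-SMG libraries of day 7 and 14. *Krt6a*, a type II keratin of activated keratinocytes, was at 11.6, 12.3, and 19.9 FPKM in the control, and at 34.3, 121, and 28.8 in the s-GAG group. It was at 39.1, 60.6, and 106 FPKM in the Alg group and at 0.05, 61.6, and 73.8 in the d-SMG group. *Krt6a* peaked on day 7 in the s-GAG group and was highest on day 14 in the other 3 groups. *Krt16*, its type I partner, was at 11.4, 16.03, and 9.55 FPKM in the control and at 0.05, 51.6, and 28.5 in the d-SMG group. The FPKM of *Krt16* was 14.5, 42.4, and 64.5 in the s-GAG group and 15.35, 43.8, and 85.2 in the Alg group, which overlapped the control on day 3. The 2 reads of *Krt6a* and the 2 of *Krt16* in the d-SMG library of day 3 are too few to rank them. *Krt6a* has near-identical paralogs that were not analysed here, and *Krt14*, *Krt16*, and *Krt17* are alike in sequence, so that their reads may have been shared or lost in the counting, whose tool is not given in the sources used here.

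By the median FPKM of the 12 libraries the order was *Krt14* (3756), *Krt5* (1223), *Krt15* (706), *Krt17* (670), *Krt1* (51.3), *Krt10* (37.1), *Krt6a* (36.7), *Krt16* (22.3), *Krt2* (1.73), and *Krt77* (0.57). *Krt14* was above *Krt5* in 12 of 12 libraries, *Krt5* above *Krt15* in 10, and *Krt17* above *Krt1* in 11. The neighbours *Krt15* and *Krt17*, *Krt1* and *Krt10*, and *Krt10* and *Krt6a* did not keep their order, with the former above the latter in 4, 8, and 6 of 12 libraries, respectively. *Krt6a* was above *Krt16* in 9 libraries, *Krt16* above *Krt2* in 11, and *Krt2* above *Krt77* in 9. Without the d-SMG library of day 3, *Krt6a* (median 39.1 FPKM) came before *Krt10* (37.6), and the other places in the order were as before.

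**Figure D2:**
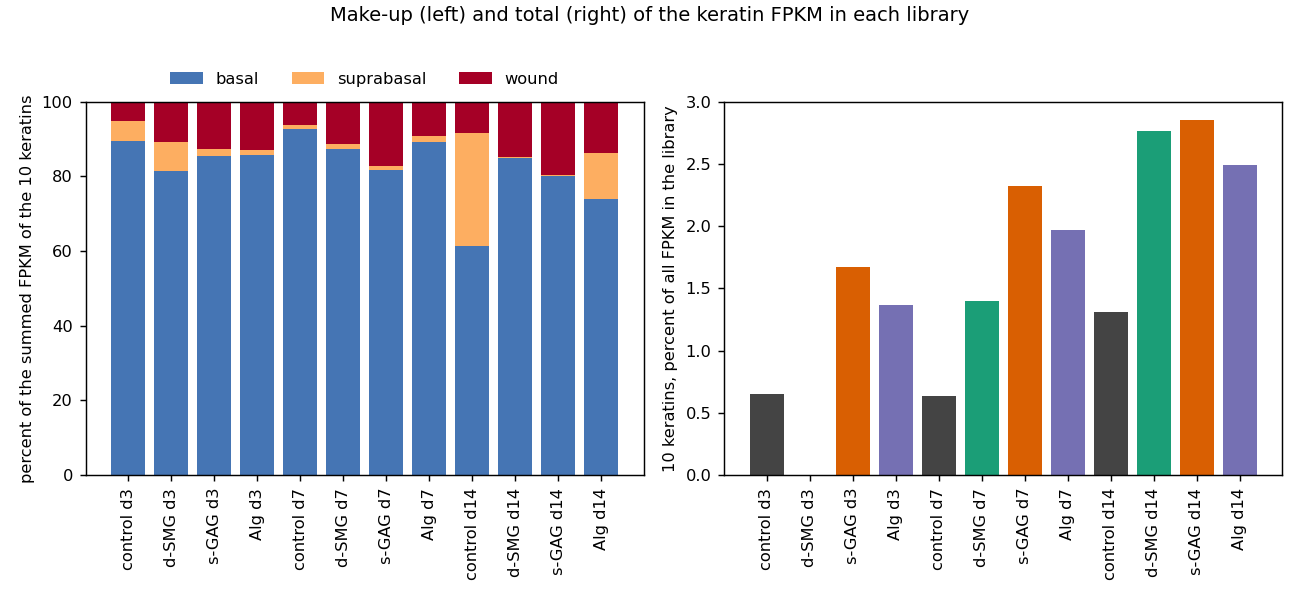
Left, the share of the basal, suprabasal, and wound keratins in the summed FPKM of the 10 keratins of each library. Right, the 10 keratins as a percent of all FPKM of the library (0.00405% in the d-SMG library of day 3). Suprabasal keratins reach 30.3% in the control and 12.3% in Alg on day 14, and 0.211% and 0.346% in d-SMG and s-GAG.

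The make-up of the keratin transcripts was then compared within libraries, where total keratin content cancels. The 10 keratins made up 0.655%, 0.633%, and 1.31% of all FPKM in the control on day 3, 7, and 14, and 1.68%, 2.32%, and 2.86% in the s-GAG group. In the Alg group they made up 1.36%, 1.97%, and 2.49%, and in the d-SMG group 0.00405%, 1.40%, and 2.77%. On day 7 and 14, all 3 treated libraries were above the control library of the day in this share. The suprabasal share of the keratin FPKM was 5.32%, 1.06%, and 30.3% in the control and 1.41%, 1.61%, and 12.3% in the Alg group. It was 7.87%, 1.46%, and 0.211% in the d-SMG group and 1.87%, 0.999%, and 0.346% in the s-GAG group. On day 14 the summed suprabasal FPKM per basal FPKM was 0.494 in the control, 0.167 in Alg, 0.00433 in s-GAG, and 0.00248 in d-SMG. The day 14 libraries thus held the highest and the lowest suprabasal share of the 12. The wound share was 5.12%, 6.14%, and 8.28% in the control, the lowest of the 4 groups on each day. It was 10.8%, 11.3%, and 14.8% in the d-SMG group, 12.6%, 17.3%, and 19.6% in the s-GAG group, and 12.9%, 9.14%, and 13.7% in the Alg group. *Krt17* made up most of this share. Without *Krt17*, the summed FPKM of *Krt6a* and *Krt16* per *Krt14* was 0.0117, 0.0179, and 0.0193 in the control. This ratio was 0.0100, 0.0316, and 0.0137 in d-SMG, 0.0124, 0.0304, and 0.00795 in s-GAG, and 0.0155, 0.0205, and 0.0362 in Alg. By this ratio the control was the lowest on day 7 alone. The d-SMG library of day 3 was like the other treated libraries in its wound share, although it held 17.3 FPKM of the 10 keratins in all and the others from 2406.5 to 18675. That share rested on 48 reads of *Krt17* and 2 each of *Krt6a* and *Krt16*. Its suprabasal share of 7.87% was above that of every other treated library but Alg on day 14 (12.3%).

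**Figure D3:**
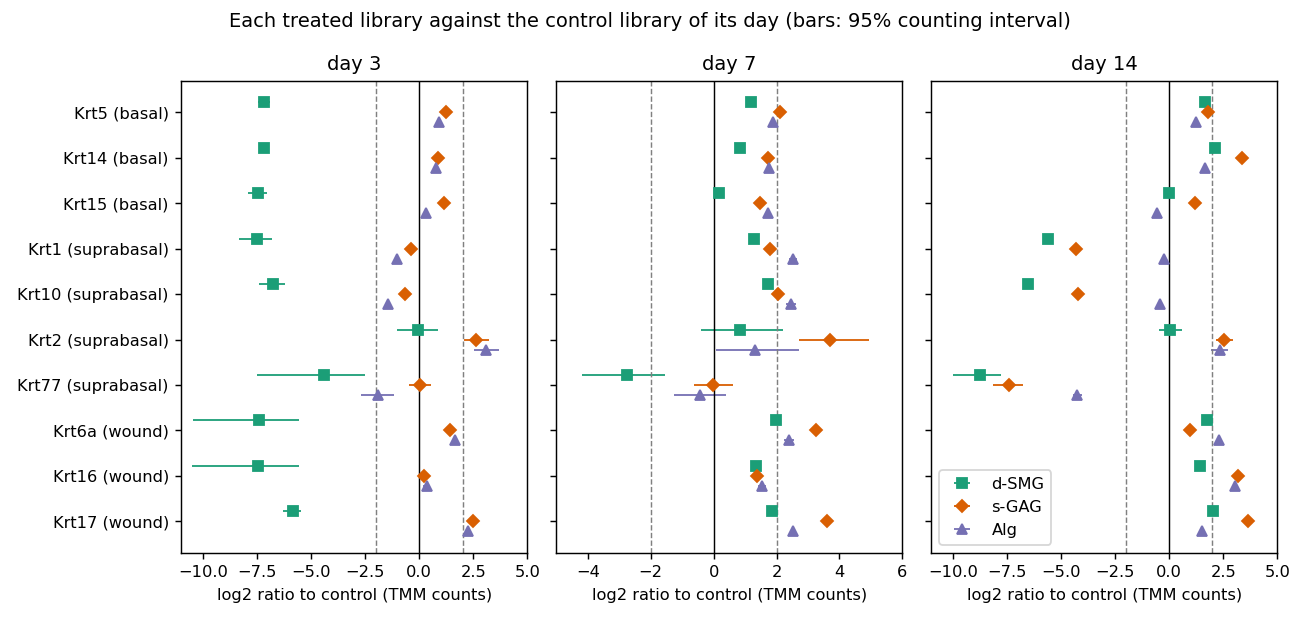
Log2 ratio of each treated library to the control library of the same day (TMM-normalized counts) for each keratin, with bars for the 95% counting interval. Dashed lines mark 4-fold. On day 3 the d-SMG points lie left of the line for 9 of 10 keratins, and on day 14 *Krt1* and *Krt10* lie far to the left in d-SMG and s-GAG but not in Alg.

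To find which keratins differed between a treatment and the control of the same day, the ratios of TMM-normalized counts were set against a size of 4-fold. They carry exact binomial 95% intervals (Clopper-Pearson), which cover counting error only, and no test. The 3 comparisons of a day share their control library, so that they are not independent. On day 3, 9 of 10 keratins were at least 4-fold lower in the d-SMG library, where 5.33% of the 15846 genes compared were, and 0 were at least 4-fold higher (2.52% of genes). *Krt14* was lower there by a log2 ratio of -7.19 (-7.37 to -7.02), with 263 reads against 73682 in the control. *Krt77*, *Krt6a*, and *Krt16* each had 2 reads there, against 82, 654, and 667 in the control. Their log2 ratios were -4.42 (-7.49 to -2.52), -7.42 (-10.46 to -5.56), and -7.44 (-10.49 to -5.58). *Krt2*, with 16 and 32 reads, was the exception at -0.06 (-1.03 to 0.85). The epithelial and muscle sums of that library, given above, stand beside these ratios. In the s-GAG library of day 3, 2 of 10 keratins were at least 4-fold higher (4.86% of genes), *Krt17* at 2.50 (2.45 to 2.54) and *Krt2* at 2.63 (2.07 to 3.23). In the Alg library they were also 2 (2.86% of genes), *Krt17* at 2.26 (2.21 to 2.30) and *Krt2* at 3.09 (2.55 to 3.67). In both libraries 0 keratins were at least 4-fold lower, where 1.91% of genes were in s-GAG and 2.1% in Alg.

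On day 7 the control was the library with the lowest *Krt10*, *Krt2*, *Krt5*, *Krt15*, and *Krt17* of the 11 libraries other than d-SMG on day 3. In the s-GAG library 5 of 10 keratins were at least 4-fold higher (4.19% of genes) and 0 lower (3.67% of genes). *Krt17* was higher by a log2 ratio of 3.62 (3.56 to 3.67) and *Krt2* by 3.71 (2.71 to 4.93), the latter with 8 reads in the control. *Krt6a* stood at 3.26 (3.13 to 3.41), *Krt5* at 2.13 (2.10 to 2.15), and *Krt10* at 2.05 (1.90 to 2.20). In the Alg library 4 of 10 keratins were at least 4-fold higher (2.58% of genes) and 0 lower (2.52% of genes). These were *Krt1* (2.53, 2.40 to 2.65), *Krt17* (2.51, 2.46 to 2.57), *Krt10* (2.46, 2.31 to 2.62), and *Krt6a* (2.39, 2.24 to 2.54). In the d-SMG library 0 of 10 keratins were at least 4-fold higher (1.34% of genes), and 1 was lower (2.03% of genes). That 1 was *Krt77*, at -2.76 (-4.18 to -1.55) with 7 and 32 reads. *Krt6a* in d-SMG was just inside 4-fold (3.996-fold, interval of the log2 ratio 1.85 to 2.15), and *Krt17* was at 1.87 (1.81 to 1.93). The median log2 ratio of the 10 keratins was 1.25 in d-SMG, 1.91 in s-GAG, and 1.84 in Alg on day 7, while that of all genes compared was -0.04, 0.05, and 0.02.

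On day 14 the keratins went both ways. In the d-SMG library 2 of 10 keratins were at least 4-fold higher (3.09% of genes) and 3 at least 4-fold lower (4.82% of genes). The higher ones were *Krt14*, at 2.13 (2.12 to 2.14), and *Krt17*, at 2.03 (2.003 to 2.06). The lower ones were *Krt1*, at -5.61 (-5.74 to -5.49), *Krt10*, at -6.52 (-6.66 to -6.38), and *Krt77*, at -8.76 (-9.98 to -7.79). In the s-GAG library 4 keratins were at least 4-fold higher (11.3% of genes) and 3 lower (13.2% of genes). *Krt17* (3.63, 3.60 to 3.65), *Krt14* (3.35, 3.34 to 3.37), *Krt16* (3.17, 3.03 to 3.31), and *Krt2* (2.55, 2.18 to 2.94) were higher. *Krt1* (-4.32, -4.41 to -4.24), *Krt10* (-4.19, -4.26 to -4.13), and *Krt77* (-7.40, -8.13 to -6.76) were lower. In the Alg library 3 keratins were at least 4-fold higher (3.15% of genes), and 1 was lower (3.7% of genes). They were *Krt16* (3.03, 2.89 to 3.17), *Krt2* (2.33, 1.96 to 2.72), and *Krt6a* (2.29, 2.18 to 2.39), with *Krt77* lower at -4.25 (-4.47 to -4.03). *Krt1* and *Krt10* were at -0.26 (-0.28 to -0.23) and -0.42 (-0.44 to -0.40) in Alg. The counting error is small for these keratins, and the spread between rats, which 1 library per group does not show, is not in the intervals.

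The s-GAG library of day 14 differed from the control by transcript length over all genes, and its keratin values stand beside this. The median log2 ratio was 1.16 for genes with an implied length of 1000 to 2000 bases and -1.04 for those over 5000 bases, where the length is the one that the FPKM and the counts of a gene imply. *Krt14* and *Krt17* are the shortest members, with implied lengths of 1593 and 1652 bases, and 22.2% of the genes of 1000 to 2000 bases were at least 4-fold higher in that library. *Krt1*, *Krt10*, and *Krt77* have implied lengths of 2635, 2904, and 3229 bases, and 6.02% of the genes of 2000 to 3000 bases and 11.2% of those of 3000 to 5000 bases were at least 4-fold lower. In the d-SMG library of day 14 the medians were 0.32 for 1000 to 2000 bases and -0.31 over 5000 bases, and in Alg 0.12 and -0.10. The same 2 medians on day 3 were -0.41 and 0.30 in s-GAG, -0.35 and 0.23 in Alg, and -0.18 and 0.19 in d-SMG. On day 7 they were 0.17 and -0.03 in s-GAG, 0.19 and -0.16 in Alg, and 0.05 and -0.16 in d-SMG. The part of length in the keratin ratios was not tested.

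Over the 3 days, the treatments were set against the control in edgeR (quasi-likelihood F test), with the day as a block and Benjamini-Hochberg adjustment over 15672 genes. Each day is a replicate in this fit, and an effect that differs between days adds to the estimated spread. For the ranges alone, 5 of 10 keratins (*Krt5*, *Krt14*, *Krt2*, *Krt6a*, and *Krt17*) were higher in every s-GAG library than in every control library, compared with 10.2% of 15972 genes, and 0 were lower in every one (7.06%). In the Alg group 4 (*Krt5*, *Krt14*, *Krt6a*, and *Krt17*) were higher throughout (5.9% of genes) and 0 lower (4.43%). In the d-SMG group 0 were higher (2.03%), and 1 (*Krt77*) was lower throughout (1.46%). Without the d-SMG library of day 3, which leaves 2 libraries against 3, 5 keratins (*Krt5*, *Krt14*, *Krt6a*, *Krt16*, and *Krt17*) were higher throughout (9.1% of genes) and 1 (*Krt77*) lower (10.7%). The test called 0 of 10 keratins in each of the 3 treatments, and 0 of 15672 genes (0%). At an unadjusted p under 0.05 edgeR found 210 genes for d-SMG, 1451 for s-GAG, and 472 for Alg, of which 1, 2, and 2 were keratins. DESeq2, run as an alternative, called 8, 287, and 87 genes and 1 keratin in each treatment.

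*Krt17* and *Krt2* had the highest fitted log2 fold changes of the 10 keratins in s-GAG and in Alg. In s-GAG the fitted log2 fold change of *Krt2* was 2.99 ± 0.54 (SE, 3 libraries per group), with an adjusted p of 0.298 by edgeR and of 4.03e-05 by DESeq2 (3.00). For *Krt17* in s-GAG it was 3.17 ± 1.24 with an adjusted p of 0.518 by edgeR, and 3.28 with an adjusted p of 0.0338 without the d-SMG library of day 3. Leaving out that library, which belongs to neither group but enters the shared estimate of spread, edgeR called 66 genes in s-GAG, all higher, in place of 0. The basal keratins *Krt14*, *Krt5*, and *Krt15* had fitted changes of 1.78 ± 1.28, 1.63 ± 1.21, and 1.23 ± 1.15 in s-GAG. *Krt6a* and *Krt16* had 1.92 ± 1.23 and 1.28 ± 1.15, and *Krt1*, *Krt10*, and *Krt77* had -1.19 ± 1.45, -1.37 ± 1.49, and -2.41 ± 1.42. Among the 10 keratins the adjusted p of edgeR in s-GAG ranged from 0.298 to 0.757 with all 12 libraries. Without the d-SMG library of day 3 it ranged from 0.0338 (*Krt17*) to 0.713 (*Krt10*). *Krt2* was then at 2.99 with an adjusted p of 0.0590, *Krt5* at 1.70 with 0.127, and *Krt6a* at 1.98 with 0.153.

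In Alg, *Krt2* had a fitted log2 fold change of 2.43 ± 0.53, with an adjusted p of 0.9999 by edgeR and 0.00774 by DESeq2 (2.45). *Krt17* and *Krt6a* had 2.17 ± 1.18 and 2.02 ± 1.21, *Krt77* had -2.99 ± 1.31, and *Krt16* had 1.30 ± 1.15. The fitted changes of *Krt14*, *Krt5*, and *Krt15* in Alg were 1.24 ± 1.24, 1.29 ± 1.203, and 0.59 ± 1.15. Those of *Krt1* and *Krt10* were -0.22 ± 1.35 and -0.50 ± 1.38, and the adjusted p of edgeR was 0.9999 for all 10. Without the d-SMG library of day 3, the adjusted p of edgeR in Alg ranged from 0.326 (*Krt17*) to 0.9999. The changes of *Krt17*, *Krt2*, and *Krt6a* were then 2.15, 2.42, and 2.10. In d-SMG, *Krt77* had -6.08 ± 1.61, with an adjusted p of 1 by edgeR and of 0.000454 by DESeq2 (-5.97). The d-SMG estimates turned on the library of day 3. With it the fitted changes of *Krt14*, *Krt5*, and *Krt17* were 0.16 ± 1.36, 0.39 ± 1.29, and 0.98 ± 1.24, and without it they were 1.16, 1.33, and 1.90. Those of *Krt15* and *Krt16* were -0.86 ± 1.21 and -0.16 ± 1.24 with it and 0.04 and 0.90 without it, and that of *Krt16* was also above 0 (0.21) when the library size alone scaled the counts. *Krt1* and *Krt10* were at -3.44 ± 1.74 and -3.53 ± 1.84 with the library and at -2.22 and -2.22 without it. *Krt6a* was at 0.76 ± 1.28 and 1.69, *Krt2* at 0.27 ± 0.52 and 0.52, and *Krt77* at -6.08 ± 1.61 and -6.14. Of the 10, the test called 0 in d-SMG with or without that library. Counts were simulated for the same 15672 genes in the d-SMG comparison, with a biological coefficient of variation of 0.5 for every gene. The test recovered 15% of genes changed 4-fold and 99.5% of those changed 16-fold. The common coefficient over all genes in these data was 0.492. The simulated counts held no day effect and the same coefficient for each gene, while edgeR did not call *Krt77* at -6.08 ± 1.61. Recovery of changes in the keratins cannot be read from them.

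The same fit compared the days over the 4 treatments. Of the 10 keratins 0 were called between any pair of days, and of 15672 genes 0 (0%) were called for day 7 against day 3, 0 (0%) for day 14 against day 3, and 0 (0%) for day 14 against day 7. At an unadjusted p under 0.05 edgeR found 273, 769, and 468 genes, of which 1, 2, and 2 were keratins, and DESeq2 called 0, 41, and 7 genes, of which 0, 0, and 1 were keratins. Between day 3 and day 14 all 10 fitted log2 fold changes were above 0. The suprabasal keratins had 2.35 ± 1.35 (*Krt1*), 2.84 ± 1.39 (*Krt10*), 3.21 ± 1.32 (*Krt77*), and 1.16 ± 0.44 (*Krt2*). The wound keratins had 2.40 ± 1.10 (*Krt17*), 2.20 ± 1.06 (*Krt16*), and 1.68 ± 1.10 (*Krt6a*), and the basal keratins 2.05 ± 1.08 (*Krt15*), 1.68 ± 1.19 (*Krt14*), and 1.39 ± 1.122 (*Krt5*). The adjusted p was from 0.888 to 0.902. Without the d-SMG library of day 3 these changes ranged from 0.65 (*Krt5*) to 3.26 (*Krt77*). *Krt2* had fitted changes of opposite sign, with -1.16 ± 0.46 for day 7 against day 3 (adjusted p = 0.998, edgeR, and -1.34 without that library) and 2.32 ± 0.46 for day 14 against day 7 (adjusted p = 0.904, edgeR). The latter passed under DESeq2 (2.33, adjusted p = 0.00793).

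**Figure D4:**
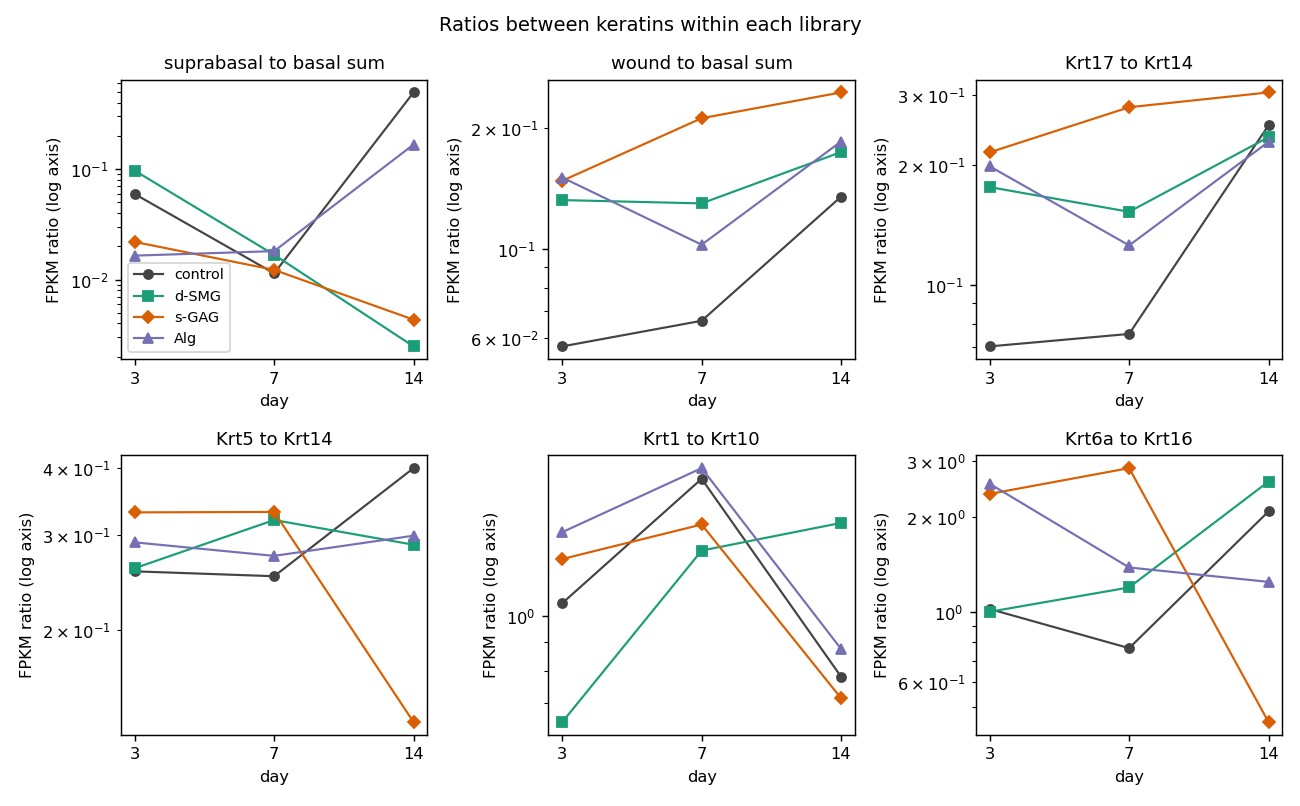
FPKM ratios within each library (log axes) on day 3, 7, and 14 (evenly spaced), for the summed groups in the upper row and for type II to type I partners below, with *Krt17* to *Krt14* at the upper right. The suprabasal to basal ratio parts on day 14, and *Krt5* to *Krt14* stays between 0.251 and 0.400 in every library but s-GAG on day 14 (0.134).

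Type II and type I partners were read against each other within each library. *Krt5* per *Krt14* was 0.257, 0.251, and 0.400 in the control, 0.260, 0.320, and 0.288 in d-SMG, and 0.291, 0.274, and 0.299 in Alg (day 3, 7, and 14). In s-GAG it was 0.331, 0.331, and 0.134. The ratio held within 0.251 to 0.400 in 11 of 12 libraries, the d-SMG library of day 3 with its 98 reads of *Krt5* included. The low library is the s-GAG library of day 14 with the length pattern given above, and *Krt5* has an implied length of 2288 bases and *Krt14* of 1593. *Krt1* per *Krt10* ranged from 0.648 to 1.83 over the 12 libraries, a narrower range than that of either gene. *Krt6a* per *Krt16* ranged from 0.447 in s-GAG on day 14 to 2.86 in s-GAG on day 7, and did not hold to a common value. *Krt17* per *Krt14* was 0.0702, 0.0754, and 0.252 in the control, and from 0.126 to 0.304 in the 9 treated libraries. On day 3 and 7 the control held less *Krt17* per *Krt14* than any treated library of the day, and on day 14 it lay within their range (0.229 to 0.304).

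Across the 12 libraries, *Krt14* and *Krt5* had a Pearson correlation of log2 (TMM-normalized CPM + 1) of 0.99, and *Krt1* and *Krt10* of 0.98. Without the d-SMG library of day 3 these were 0.92 and 0.98, respectively. *Krt14* and *Krt17* had 0.97 and 0.92, and *Krt14* and *Krt10* had 0.54 and -0.19. All of these are descriptions over 12 or 11 libraries that share their depth, tissue composition, and, in the former, 1 library with few keratin reads. Over the 11 libraries, the 9 pairs of a basal and a wound keratin ranged from 0.37 (*Krt15* and *Krt6a*) to 0.94 (*Krt5* and *Krt17*). *Krt1* and *Krt10* had from -0.26 to 0.24 with the 6 basal and wound keratins. Among 14052 genes, the 5 most like *Krt14* were *S100a14* (0.985), *Calml3* (0.985), *Serpinb5* (0.981), *Lgals7* (0.980), and *Perp* (0.979), and over 11 libraries these had 0.860 to 0.963. *Perp* is a desmosome component of stratified epithelia, and *Lgals7* encodes a galectin of the same tissue. The 5 most like *Krt10* were *Serpinb12* (0.933), *Krt78* (0.927), *Cdsn* (0.903), *Loricrin* (0.901), and *Hal* (0.897), and over 11 libraries they had 0.830 to 0.963. *Cdsn* encodes corneodesmosin and *Loricrin* a main protein of the cornified envelope. The 5 most like *Krt16* were *Rgs12* (0.934), *Rbp2* (0.934), *Stfa2* (0.930), *Ocm* (0.929), and *Cracdl* (0.926), with 0.760 to 0.849 over 11 libraries.

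**Figure D5:**
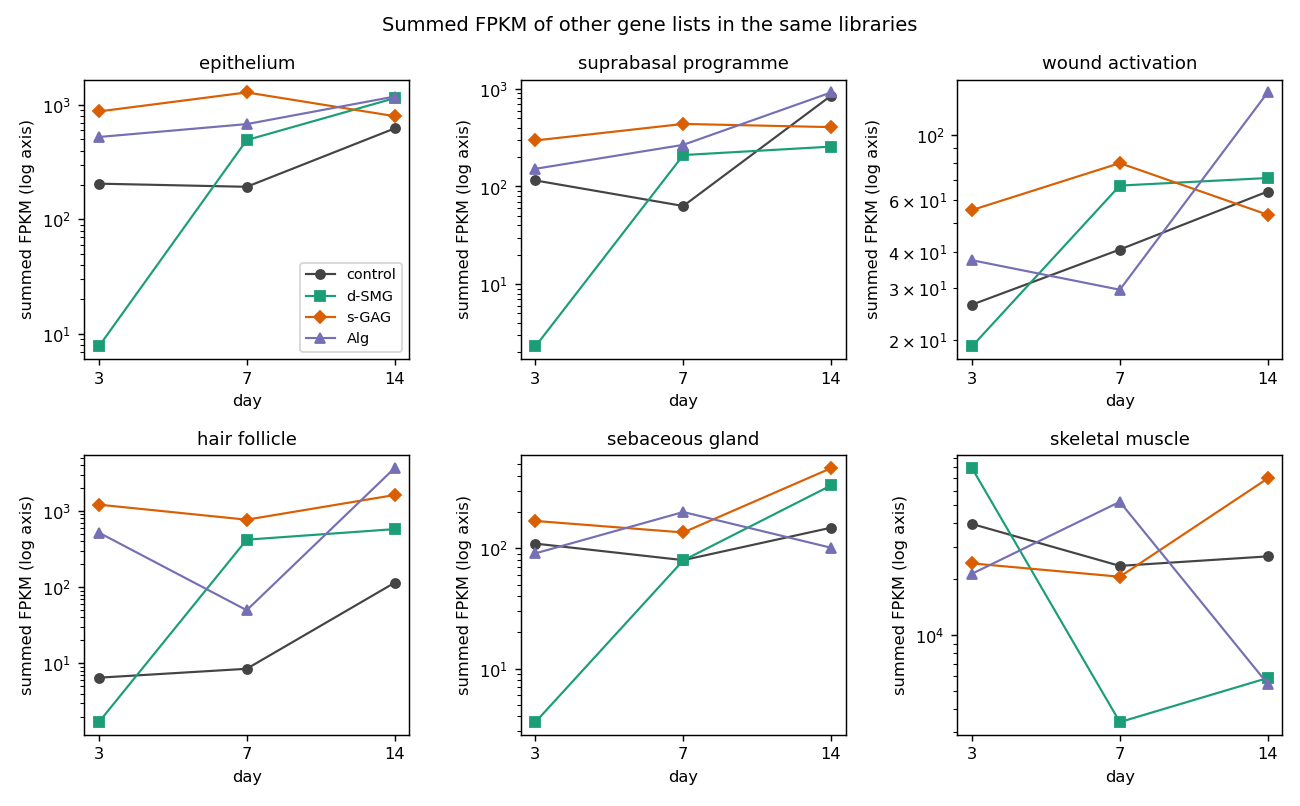
Summed FPKM (log axes) of 6 other gene lists in the same libraries on day 3, 7, and 14 (evenly spaced), 1 point per library. Hair follicle genes are at 6.47 and 8.47 FPKM in the control on day 3 and 7 and from 49.8 to 3652 in the treated libraries other than d-SMG on day 3.

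Other genes of the keratinocyte were then set beside the keratins, from lists of known genes. The suprabasal programme (12 genes of the spinous and granular layers, such as *Krtdap*, *Sbsn*, and *Calml5*) had 7 of 12 genes at least 4-fold lower in d-SMG on day 14 (4.82% of all genes) and 3 of 12 in s-GAG (13.2%). In Alg on day 14 it had 1 of 12 (3.7%), and 0 were higher in any of the 3. On that day *Sbsn* was at 325 FPKM in the control, 141 in d-SMG, 185 in s-GAG, and 241 in Alg, and *Krtdap* at 137, 24.1, 87.6, and 120. *Calml5* was at 225, 44.8, 86.1, and 380 FPKM. Fewer of its genes were low in s-GAG than in d-SMG, and its summed FPKM was 852 in the control, 256 in d-SMG, 405 in s-GAG, and 919 in Alg. On day 7 it was the other way around, with 9 of 12 genes at least 4-fold higher in s-GAG (4.19% of all genes), 7 in Alg (2.58%), and 3 in d-SMG (1.34%).

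The basal layer programme (9 genes that anchor basal cells, such as *Col17a1*, *Dst*, and *Lamb3*, and the regulator *Tp63*) had both higher and lower genes. On day 3, 4 of 9 genes were at least 4-fold lower in d-SMG (5.33% of all genes), with *Col17a1* at 0.62 FPKM against 20.6 in the control and *Lamb3* at 0.40 against 13.2. On day 14, 2 of 9 genes were at least 4-fold higher in d-SMG (3.09% of all genes), 1 in s-GAG (11.3%), and 0 in Alg (3.15%), while 1 was lower in s-GAG (13.2%). *Col17a1* was at 34.5 FPKM in the control on day 14, 66.2 in d-SMG, 16.7 in s-GAG, and 53.1 in Alg, and *Lamb3* at 9.05, 48.9, 53.85, and 16.4. *Dst*, a long gene, was at 36.2, 15.6, 2.17, and 25.7 FPKM. The summed FPKM of the epithelial genes was 625 in the control, 1148 in d-SMG, 800 in s-GAG, and 1187 in Alg on day 14. *Krt14* per summed epithelial FPKM was 2.45, 6.51, 14.7, and 4.44 in these libraries. The control value of 2.45 was the lowest of the 11 libraries other than d-SMG on day 3. *Dsp*, the long gene that leads that sum in the control with 295 FPKM, was at 292 in d-SMG, 23.9 in s-GAG, and 543 in Alg. On day 7 *Krt14* per epithelial FPKM was 8.21 in the control, 7.26 in d-SMG, 4.17 in s-GAG, and 7.48 in Alg. On day 3 it was 9.58 in the control, 1.29 in d-SMG, 4.46 in s-GAG, and 6.69 in Alg. The part of epithelial content in the *Krt14* levels was not tested.

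Of the wound activation genes (9 genes, such as the cornified envelope precursor *Sprr1a* and the growth factor *Hbegf*), 2 of 8 kept by the read minimum were at least 4-fold higher in s-GAG on day 7 (4.19% of all genes) and 2 lower (3.67%). In s-GAG on day 14, 2 of 8 were higher (11.3%), and in d-SMG and Alg on that day 1 of 7 and 1 of 8 (3.09% and 3.15%). In Alg on day 7, 2 of 7 were higher (2.58%) and 1 lower (2.52%), and in d-SMG 1 of 7 was higher (1.34%). On day 3, 4 of 7 were lower in d-SMG (5.33%) and 1 of 7 was higher in s-GAG (4.86%). *Sprr1a* was at 0.83 FPKM in the control on day 7, 29.3 in d-SMG, 51.0 in s-GAG, and 6.90 in Alg, whereas *Itga5* was at 11.3, 9.14, 4.18, and 4.50. Of these, *Sprr1a* was higher in all 3 treated libraries of day 7 and *Itga5* lower. *Hbegf* was at 5.69 FPKM in the control on day 7, 4.96 in d-SMG, 9.09 in s-GAG, and 5.30 in Alg. On day 14 *Sprr1a* was at 46.1 FPKM in the control, 23.6 in d-SMG, 29.2 in s-GAG, and 105.7 in Alg. Of the 15 keratinocyte transcription factors, 5 were at least 4-fold higher in s-GAG on day 7 (4.19%) and 4 on day 3 (4.86%). There was 1 higher in s-GAG (11.3%), d-SMG (3.09%), and Alg (3.15%) on day 14, and in Alg on day 7 (2.58%). In d-SMG on day 3 (2.52%) and 7 (1.34%) and in Alg on day 3 (2.86%) there were 0. At least 4-fold lower were 6 of 15 in d-SMG on day 3 (5.33%) and 1 in s-GAG on day 14 (13.2%). Of the simple epithelial keratins, which stratified epidermis hardly makes, *Krt8* was at 0.90 to 24.0 FPKM and *Krt18* at 0.04 to 3.42. *Krt8* was highest in s-GAG on day 14, where *Krt1* was at 23.9 FPKM. In s-GAG, 3 of 4 of these keratins were at least 4-fold higher on day 7 (4.19%) and 3 of 5 on day 14 (11.3%). On day 7, 2 of 4 were higher in Alg (2.58%) and 1 of 3 in d-SMG (1.34%). In Alg on day 14, 1 of 4 was lower (3.7%).

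Hair follicle genes spanned a wider range than any basal or wound keratin over the 11 libraries other than d-SMG on day 3. The summed FPKM of 15 of them, such as the inner root sheath keratins *Krt71* and *Krt25* and the hair shaft keratin *Krt35*, was 6.47, 8.47, and 114.0 in the control on day 3, 7, and 14. It was 1210, 768, and 1619 in s-GAG, 520, 49.8, and 3652 in Alg, and 1.69, 420, and 577 in d-SMG. On day 3, 15 of 15 were at least 4-fold higher in s-GAG (4.86% of all genes) and in Alg (2.86%). On day 14 it was 14 of 15 in s-GAG (11.3%), 15 in Alg (3.15%), and 12 in d-SMG (3.09%). *Krt71* was at 2.87 FPKM in the control on day 3, 320 in s-GAG, and 130 in Alg, and 3 of the 15 genes had 0 reads in d-SMG on that day. *Krt14*, *Krt5*, *Krt15*, and *Krt17* are made in follicles as well as in the epidermis, and the part of the follicles in their levels was not tested. In Alg, the follicle sum was 49.8 FPKM on day 7 and 3652 on day 14. *Krt14* was at 5098 and 5272 FPKM there, and *Krt15* at 785 and 698. In the control the sum went from 8.47 to 114.0, *Krt14* from 1584 to 1528, and *Krt15* from 251 to 933. In d-SMG the sum went from 420 to 577, *Krt14* from 3587 to 7473, and *Krt15* from 359 to 1047. In s-GAG the sum went from 768 to 1619, *Krt14* from 5375 to 11739, and *Krt15* from 713 to 1625. From day 7 to day 14 *Krt17* went from 641 to 1206 FPKM in Alg and from 119 to 385 in the control. In d-SMG *Krt17* went from 548 to 1757, and in s-GAG from 1502 to 3574. *Krt5* went from 1399 to 1577 FPKM in Alg, 398 to 611 in the control, 1148 to 2151 in d-SMG, and 1781 to 1579 in s-GAG. Sebaceous gland genes (7 genes, such as *Awat1* and *Elovl3*) summed to 79.8 to 149 FPKM in the control and from 79.4 to 465 in the treated libraries other than d-SMG on day 3, where they summed to 3.59.

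Tissues below the epidermis varied as well. The 12 skeletal muscle genes, led by *Tnnc2*, *Tnnt3*, and *Myh4*, summed to 23588 to 39679 FPKM in the control, 3394 to 79348 in d-SMG, 20617 to 69802 in s-GAG, and 5459 to 52240 in Alg. The 8 macrophage genes, such as *Lyz2*, summed to 1391 to 2416 FPKM in the control, 887 to 2518 in d-SMG, 293 to 1178 in s-GAG, and 520 to 1320 in Alg. The 7 fibroblast genes, such as *Col1a1*, summed to 1871 to 8597, 912 to 6915, 1438 to 4677, and 2233 to 3852 FPKM, respectively. Sums of the 7 adipocyte genes ranged from 286 to 1074 FPKM, and those of the 5 neutrophil genes from 3.76 to 149. None of the muscle, macrophage, or fibroblast genes was at 0 reads in any library. In the s-GAG library of day 14, which held the most *Krt14* and *Krt17*, the muscle sum was 69802 FPKM, and in the d-SMG library of day 3, which held the least, 79348. *Tnnc2* alone made up 31896 FPKM of the former sum, while *Myh4* was at 4937 FPKM there and at 4009 to 6570 in the control, and that library has the length pattern given above. The part of muscle content in the keratin levels was not tested.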

How the data were processed

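RNA was sequenced from 12 libraries of wound tissue, 1 for each of 4 treatments on each of 3 days. The authors deposited read counts per gene without normalization, as whole numbers, and FPKM per gene, which the authors had scaled by gene length and library total. The submitters' processing notes name bcl2fastq, FastQC, TopHat2, and edgeR, while the counting tool and genome build are not given in the sources used here. Each table holds 1 further column of values that matches no sample, and it was not used. Samples were grouped by the treatment label. The members and lists were chosen with earlier results of these data known, and the lists are known genes set by hand. The rule for named genes was all 10 keratins, the 3 genes of each list with the highest mean FPKM, and the 5 genes most like *Krt14*, *Krt10*, and *Krt16*, without provisional symbols and among genes with at least 10 reads in at least 3 libraries. *Dsp*, *Perp*, *Tp63*, and *Cdh1* are list members given as examples. A gene that the rule also names is not reported here.

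Treatments and days were compared by glmQLFit and glmQLFTest of edgeR 4.0.16 in R 4.3.3, two-sided, with TMM normalization, filterByExpr, and treatment and day as additive terms (6 residual degrees of freedom, FDR under 0.05). Treated and control libraries of a day were set side by side without a test, since no dispersion can be estimated from 1 library per group and the study states none. A gene needed 10 reads over the pair of libraries, and calls against fewer than 3 reads were made with a floor of 3 reads. For such keratins the observed ratio is printed with its counting interval instead of a bound. Intervals cover counting error only, since 1 library per group does not show the spread between rats. No molecular identifiers of the reads were used here. Ranges were compared over genes with at least 10 reads in at least 3 libraries. Implied lengths are the median over libraries of reads per FPKM, scaled to the library total, and length classes used genes whose reads in both libraries summed to at least 100. Alternatives were RLE size factors, the library size alone, no low-count filter or 50 reads, DESeq2 1.42.0, no replicate block, only the groups compared, each day or treatment left out, FPKM with a pseudocount of 1 or 0.1 on the log2 scale, and a 2-fold size. The fit, ranges, and order without the d-SMG library of day 3 were added after seeing the data. The fit was tested on simulated data with 200 changed genes. Python 3.11.15 with pandas 2.3.3, SciPy 1.17.1, and matplotlib 3.10.9 gave the intervals and figures.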

Additional observations from a re-analysis of the deposited data

Results flagged for a closer look

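In 3 keratins the ratio to the control passed 4-fold in opposite directions on different days of the same treatment. *Krt14* was lower in d-SMG on day 3, with a log2 ratio of -7.19, and higher on day 14, with 2.13. *Krt17* in d-SMG was at -5.86 on day 3 and at 2.03 on day 14. Both low values come from the d-SMG library of day 3, which held 17.3 FPKM of the 10 keratins and 7.76 FPKM of the epithelial genes. *Krt10* in s-GAG was at 2.05 on day 7 and at -4.19 on day 14, and here the control moved more, from 8.89 to 813 FPKM, than s-GAG, from 37.6 to 33.4 FPKM. Each ratio rests on 1 library per group, and the difference between the days was not tested.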

How the results depend on the processing

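Over the days, the counts of calls were 0 under RLE size factors, the library size alone, no day block (no replicate block), and each day or treatment left out. DESeq2 called 8 genes in d-SMG (5 higher), 287 in s-GAG (256 higher), 87 in Alg (83 higher), 41 for day 14 against day 3, and 7 for day 14 against day 7, with 1 keratin in each treatment and 1 for day 14 against day 7. Called genes in s-GAG were 1 without the low-count filter, 9 with only the groups compared (2 in Alg), and 66, 1 of them a keratin, without the d-SMG library of day 3. Fitted log2 changes that turned sign in d-SMG were those of *Krt16* (0.21 with the library size alone, 0.86 with no replicate block, 0.90 without the d-SMG library of day 3), *Krt15* (0.042 without that library), and *Krt5* and *Krt14* (-0.13 and -0.13 with only the groups compared), and in Alg *Krt1* and *Krt10* (0.35 and 0.12 with only the groups compared). Leaving out each day, d-SMG gave -0.74 to 1.49 (*Krt5*), -1.09 to 1.51 (*Krt14*), -1.72 to 0.11 (*Krt15*), -0.11 to 1.88 (*Krt6a*), and -1.68 to 1.42 (*Krt16*), and *Krt1* gave -2.12 to 0.057 in s-GAG and -0.57 to 0.17 in Alg. Fewer samples enter the fits with only the groups compared, with a day left out, or without the d-SMG library of day 3. All libraries enter those with the library size alone or no replicate block. The cause of the sign changes was not tested. Without the d-SMG library of day 3, keratins above every control library in d-SMG numbered 5 in place of 0. Keratins past 4-fold in d-SMG on day 7 numbered 2 with RLE size factors, 4 with the library size alone, 2 and 3 with FPKM at a pseudocount of 1 and 0.1, and 0 with a minimum of 50 reads, where *Krt77* leaves the genes compared. With FPKM at a pseudocount of 1 they were 1 in s-GAG on day 3 and 3 on day 7. At 2-fold they were 7 and 8 in d-SMG on day 7 and 14, 5 and 9 in s-GAG on day 3 and 7, and 6, 9, and 7 in Alg on day 3, 7, and 14. Depth limits *Krt2*, with 8 to 306 reads per library, *Krt77*, with 2 to 186 reads outside the control library of day 14, and *Krt6a* and *Krt16* in d-SMG on day 3.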
